A study of Homo sapiens with 9 samples.

Results

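Transcripts of the cadherin and protocadherin genes were compared between HEK293 cells, a human embryonic kidney line, that stably expressed HA-tagged MEK1 in its WT, F53S or K57N form. The members are all non-control array probes whose gene name is CDH followed by a number or begins with PCDH, and they came to 113 of 50598 probes, or 86 of 38780 gene names. They comprise 18 classical cadherins (5 of type I and 13 of type II), 5 other cadherins, 13 non-clustered protocadherins, 46 clustered protocadherins (15 alpha, 15 beta and 16 gamma) and 4 pseudogenes of the clusters. MEK1, encoded by MAP2K1, is the kinase that activates ERK. F53S is a form found in RASopathies and K57N a form found in sporadic cancers. All 3 lines carried an introduced MEK1 and were made by plasmid transfection and puromycin selection, so WT cells are not untransfected cells. RNA was taken at steady state on 3 arrays per line. Each form was represented by 1 derived line, so the arrays measure the spread between experiments, and the MEK1 form cannot be told apart from other differences between the lines.

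Cadherins are membrane proteins whose extracellular repeats bind calcium. The classical cadherins hold neighboring cells together at adherens junctions, and their tails bind catenins that connect to actin. Non-clustered protocadherins are encoded by single genes, of which the delta-1 and delta-2 groups are known mainly from the nervous system. The alpha, beta and gamma protocadherins are encoded by tandem variable exons on chromosome 5, each with its own promoter, and the alpha and gamma variable exons are spliced to constant exons shared by the whole cluster, whereas each beta gene stands alone. Combinations of clustered isoforms give neurons a surface identity. Most of these promoters carry a conserved element with the core letters CGCT, and CTCF and cohesin are known to act on the clusters.

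The sequence most often shared by the promoters of the beta protocadherins is shown here as a description of the cluster. A relation of this sequence to the signals described further on was not tested. In the RefSeq promoter windows of GRCh38.p14, from 250 bases before to 50 bases after the start, the string of 9 bases held by the most beta genes was GGTGGCGCT. It was present, on either strand, in 9 of 9 tested beta genes with a window and in 3 of 4 with a window that were not tested. Over all 27305 genes its share was 0.619%. The high share among beta genes follows from how the string was picked and says nothing about differences between the lines. The first base of the string lay from -84 to -2 relative to the start. Capitals mark the match in 30 bases of the plus strand around it, in chromosomal order.
PCDHB2 (chr5:141094544-141094573): aagagacgcggGGTGGCGCTgcagccttag
PCDHB8 (chr5:141177777-141177806): tgaggacccgtGGTGGCGCTgcaggataag
PCDHB16 (chr5:141182310-141182339): tgagaacgcgtGGTGGCGCTgcaggttaag
PCDHB9 (chr5:141187074-141187103): ggaagccacaaGGTGGCGCTgcagactgaa
PCDHB10 (chr5:141192299-141192328): ggaggccacacGGTGGCGCTgcaggctaaa
PCDHB12 (chr5:141208643-141208672): tggagacgcgtGGTGGCGCTgcaggataat
PCDHB13 (chr5:141213865-141213894): tgaggacgcgtGGTGGCGCTgcaggataag
PCDHB14 (chr5:141223263-141223292): tggagacacatGGTGGCGCTacaggataag
PCDHB15 (chr5:141245314-141245343): agacaacgcatGGTGGCGCTgcaggctaag

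The commonest strings of the other clusters, found in the same way, were GATGTCGCT in 9 of 13 alpha genes (0.128% of all genes) and GCGCCGCTG in 10 of 20 gamma genes (1.59% of all genes). All 3 strings contain CGCT. They are shown for the tested alpha and gamma genes that held them and had a probe in their own variable exon, for comparison with the beta genes.
PCDHA1 (chr5:140786086-140786115): attggccacatGATGTCGCTgtacaccaca
PCDHA5 (chr5:140821542-140821571): ttcatccacatGATGTCGCTggacaccgga
PCDHA7 (chr5:140834172-140834201): gatggccacatGATGTCGCTctttaccgca
PCDHGB1 (chr5:141350026-141350055): acaacctctggGCGCCGCTGtcgaccaaaa
PCDHGA7 (chr5:141382650-141382679): aaggactcacaGCGCCGCTGttcaccaacc
PCDHGB4 (chr5:141387618-141387647): gctgactctggGCGCCGCTGttggccaaag

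For PCDHB10, the beta gene with the lowest adjusted p in K57N against WT cells, the 250 bases before the start (chr5:141192103-141192352, plus strand, GRCh38.p14) are given with the same letters in capitals.
PCDHB10: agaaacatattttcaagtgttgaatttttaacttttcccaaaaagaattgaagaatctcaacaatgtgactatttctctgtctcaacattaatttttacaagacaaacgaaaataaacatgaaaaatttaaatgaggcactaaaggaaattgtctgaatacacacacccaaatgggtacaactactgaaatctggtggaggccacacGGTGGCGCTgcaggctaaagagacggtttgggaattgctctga
A match of letters describes the sequence and does not show that a factor binds there.

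Signals are given as log2 of the scanner's processed intensity less the array's 75th percentile, so that 0 is the signal at that percentile, and they compare the same probe between arrays and not different genes. Replicate 1 of every line was on slide 1, where the 75th percentile of the intensity was 245 to 376.25, and replicates 2 and 3 were on slide 2, where it was 695 to 821. Probes well above background numbered 23714 to 29324 per array. Many members differed between the slides in every line, so differences are also given within slides and from a fit that includes the slide wherever this changed a call. The probe of MAP2K1 itself gave 2.36, 2.34 and 2.42 in WT cells, 2.5, 2.39 and 2.46 in F53S cells and 2.92, 2.81 and 2.82 in K57N cells (limma adjusted p = 0.135 for K57N against WT). Of 7 HEK293 markers, 6 were detected on all 9 arrays, and these 6 differed between K57N and WT cells by -0.03 (VIM) to 0.99 (LHX1). With slide in the limma fit, adjusted p was 0.0977 for LHX1, 0.00593 for KRT18 (0.72) and 0.0193 for NEFL (0.50). Of 9 markers of other cell types, PTPRC, VWF and COL1A1 were detected on all 9 arrays, whereas ALB, COL1A2 and DCN were above background on no array. Of the detected markers, COL1A1 differed most between K57N and WT cells, by -1.20 (adjusted p = 0.0994, and 0.00327 with slide in the fit). VWF differed by -0.85 (limma adjusted p = 0.165, and 0.00579 with slide in the fit), whereas PTPRC differed by 0.24 (0.982 and 0.524). The part of these markers in the results below was not tested.

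Detection differed between the classes. A gene was tested if 1 of its probes was well above background on each of the 3 arrays of any line. This held for 39 of the 86 genes, 31 of which were detected on all 9 arrays. Of the type I classical cadherins 4 of 5 were tested, but of the type II cadherins 3 of 13, and 8 of these 13 were above background on no array. Among clustered protocadherins, 5 of 15 alpha, 10 of 15 beta and 8 of 16 gamma genes were tested. Of these, PCDHA11 and PCDHGA8 are read from probes in the constant exons, which report the whole alpha or gamma cluster. Of the 13 non-clustered protocadherins 6 were tested, and of the other cadherins 2 of 5. The remaining 47 genes, 23 on no array and 24 on some arrays, have no level here and are not part of the counts that follow.

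**Figure D1:**
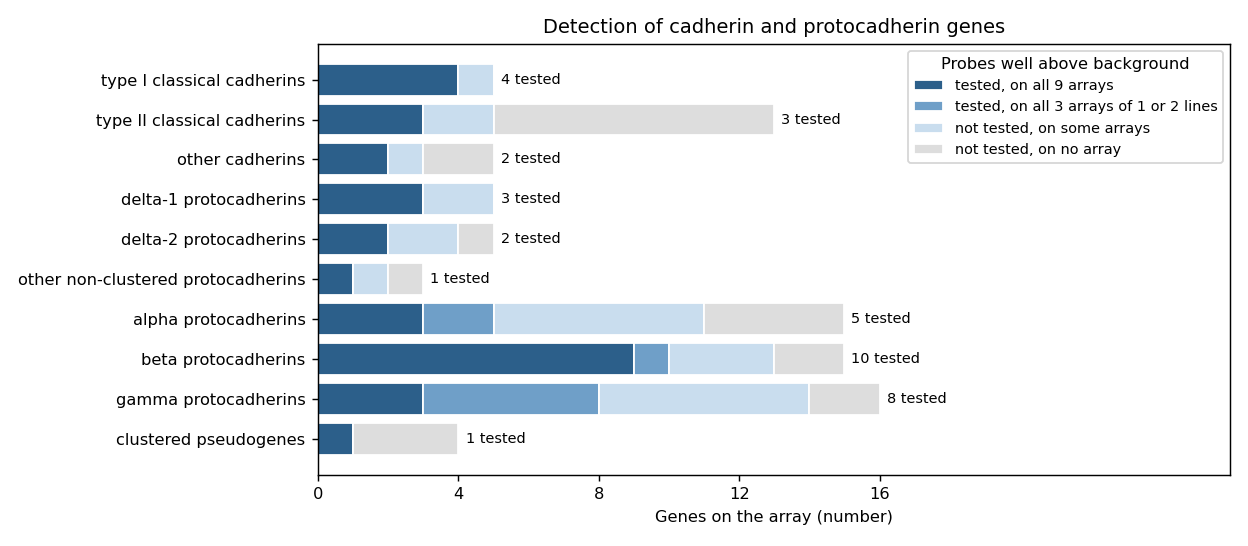
Number of genes on the array (x axis) in each class of cadherins and protocadherins (y axis), split by how many of the 9 arrays had the gene's best probe well above background. Type II classical cadherins were mostly undetected (3 of 13 tested), whereas 10 of 15 beta protocadherins were tested.

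The question put to the arrays was which transcripts differ between the WT line and the 2 mutant lines. In K57N cells, 1 of the 39 tested genes was called higher than in WT cells, CDH13, and 1 was called lower, CDH24, where a call required a limma adjusted p below 0.05 and more than 2-fold. Over all 19280 genes tested, 1.52% were called higher and 0.742% lower. The K57N and WT arrays did not overlap for 3 members that were higher (10.3% of all genes) and 12 that were lower (12.6%). At any fold, 2 members each way passed the adjusted p (1.73% and 1.04% of all genes), and with slide in the fit 4 higher and 9 lower ones did (8.56% and 10.8%). With slide in the fit, PCDH1 joined the higher genes and PCDHB18P the lower ones, and the shares over all genes were 2.57% and 1.97%. With the replicate number as a block in place of the slide, PCDHB18P was not called (adjusted p = 0.0671), and PCDHB14 and CDH23 no longer passed the adjusted p at any fold (0.0734 and 0.0546). In F53S cells no member was called against WT, nor was any gene of the array, with or without the slide term (0% each way). In RNA from whole cultures, fewer expressing cells and less RNA per cell cannot be told apart. Without adjustment of p, limma and the methods' t-test also gave 0 members for F53S at the same limits. The share over all genes was not counted for these unadjusted rules, so that 0 is not read as a result about the members. Against F53S cells, K57N cells had 1 member called higher, again CDH13, and 0 lower, where all genes gave 0.96% and 0.249%. With slide in the fit these counts were also 1 and 0 (1.89% and 1.11% of all genes). All counts read a gene from its brightest tested probe. A dimmer CDH23 probe, described below, was lower within the call limits against both WT and F53S cells with slide in the fit.

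Among classical cadherins, N-cadherin (CDH2), the adhesion molecule of neural and mesenchymal cells, overlapped between the 3 lines. Its signal was 2.53, 2.87 and 2.88 in WT cells, 2.42, 2.83 and 3.02 in F53S cells and 2.67, 2.86 and 2.94 in K57N cells. No line stood apart, and the difference of K57N from WT was 0.06 ± 0.20 on the log2 scale (SE; limma adjusted p = 0.985). A second CDH2 probe differed by 0.33 (adjusted p = 0.604, 0.0447 with slide in the fit and 0.0813 with the replicate block). E-cadherin (CDH1), the adhesion molecule of epithelia, was well above background on 1 WT and 1 F53S array and on no K57N array, and both probes of CDH11, known from mesenchymal and bone-forming cells, were above it on no array.

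CDH24, a type II classical cadherin, was lower in K57N cells. Its probe lies at chr14:23516949-23517008 (hg19, minus strand). It gave -0.40, -0.60 and -0.56 in WT cells, -0.57, -0.80 and -0.74 in F53S cells and -1.66, -1.6 and -1.54 in K57N cells. Every K57N array was below every WT and F53S array. WT cells averaged -0.52 ± 0.11, F53S cells -0.70 ± 0.12 and K57N cells -1.6 ± 0.06 (SD, n = 3). K57N cells thus fell by 1.08 ± 0.15 (log2, SE) against WT, 2.11-fold (limma adjusted p = 0.00801), and the fall was 1.26 within slide 1 and 0.99 within slide 2. The call was kept whichever array was left out, and with slide in the fit in 8 of 9 such fits. It was lost with normexp background correction, without the filter on dim probes and with slide 2 alone. Against F53S cells the log2 difference was -0.90 (limma adjusted p = 0.0295), which is 1.86-fold and below the fold limit. F53S and WT arrays overlapped, with a difference of -0.18 (adjusted p = 1.0).

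The type I cadherins CDH4 and CDH3 differed from WT in opposite directions in K57N cells. R-cadherin (CDH4) gave -1.74, -1.90 and -1.84 in WT cells, -1.25, -1.65 and -1.44 in F53S cells and -0.77, -1.13 and -1.06 in K57N cells. The 3 lines did not overlap and ranked WT, F53S, K57N. Its rise in K57N against WT was 0.84 ± 0.17 (log2, SE), 1.79-fold, which passed the adjusted p (0.0456 in limma) but not the fold limit. F53S against WT differed by 0.38 (adjusted p = 1.0) and K57N against F53S by 0.46 (adjusted p = 0.380, and 0.0214 with slide in the fit). P-cadherin (CDH3) gave 0.63, -0.16 and -0.13 in WT cells, 0.54, -0.14 and -0.03 in F53S cells and -0.39, -0.76 and -0.60 in K57N cells. The K57N arrays lay below all others, and slide 1 was above slide 2 in each line. The difference from WT was -0.69 (limma adjusted p = 0.312, and 0.00776 with slide in the fit, under 2-fold). The other tested classical cadherins, M-cadherin (CDH15) of muscle, VE-cadherin (CDH5) of endothelium and CDH22, differed between K57N and WT by -0.16, -0.13 and -0.09 with overlapping arrays. Of the endothelial markers beside CDH5, VWF differed by -0.85 (adjusted p = 0.165, and 0.00579 with slide in the fit) and PECAM1 was above background on 2 arrays.

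Outside the classical group, T-cadherin (CDH13), which is held in the membrane by a lipid anchor and lacks the catenin-binding tail, was higher in K57N cells. Its probe lies at chr16:83830027-83830086 (hg19, plus strand). The signal was -2.51, -2.06 and -2.12 in WT cells, -2.47, -2.16 and -2.11 in F53S cells and -1.32, -0.98 and -0.64 in K57N cells. WT and F53S arrays overlapped, and all 3 K57N arrays were above them. The rise over WT was 1.25 ± 0.22 (log2, SE), 2.37-fold (limma adjusted p = 0.0269), with 1.19 within slide 1 and 1.28 within slide 2. Over F53S cells it was 1.27 ± 0.22, 2.41-fold (adjusted p = 0.0379), a call that was kept only without WT replicate 1 when an array was left out (adjusted p up to 0.159). The call against WT was lost when any of 7 arrays was left out (adjusted p up to 0.114) and was kept without F53S replicate 1 or K57N replicate 1, whereas with slide in the fit both calls were kept whichever of the 9 arrays was left out. A second probe, for another transcript variant, was detected on 5 arrays (1 of WT, 2 of F53S and 2 of K57N cells) and was not tested.

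Of the 3 probes of CDH23, a component of the tip links of hair cells, 2 were tested. The brighter one gave -0.82, -1.59 and -1.54 in WT and -1.65, -1.88 and -2.09 in K57N cells, a difference of -0.56 (limma adjusted p = 0.570, and 0.0308 with slide in the fit). The other tested probe, some way downstream in the gene (chr10:73466744-73466803 against chr10:73376989-73377048, hg19), gave -0.62, -1.63 and -1.49 in WT cells, -0.99, -1.77 and -1.82 in F53S cells and -2.71, -2.97 and -2.56 in K57N cells. Its difference from WT was -1.498 ± 0.32, 2.82-fold (limma adjusted p = 0.0561, and 0.00277 with slide in the fit). Against F53S cells it was -1.22, 2.33-fold (adjusted p = 0.170, and 0.00934 with slide in the fit). With slide in the fit this dimmer probe was within the call limits in both comparisons, but the counts above read CDH23 from the brighter one. Both tested probes were lower in every K57N array than in every WT array, and the difference between them was not tested. The third was detected on 2 arrays, and its K57N arrays, at -5.78, -5.30 and -5.08, overlapped the WT arrays, at -4.42, -5.28 and -5.39.

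**Figure D2:**
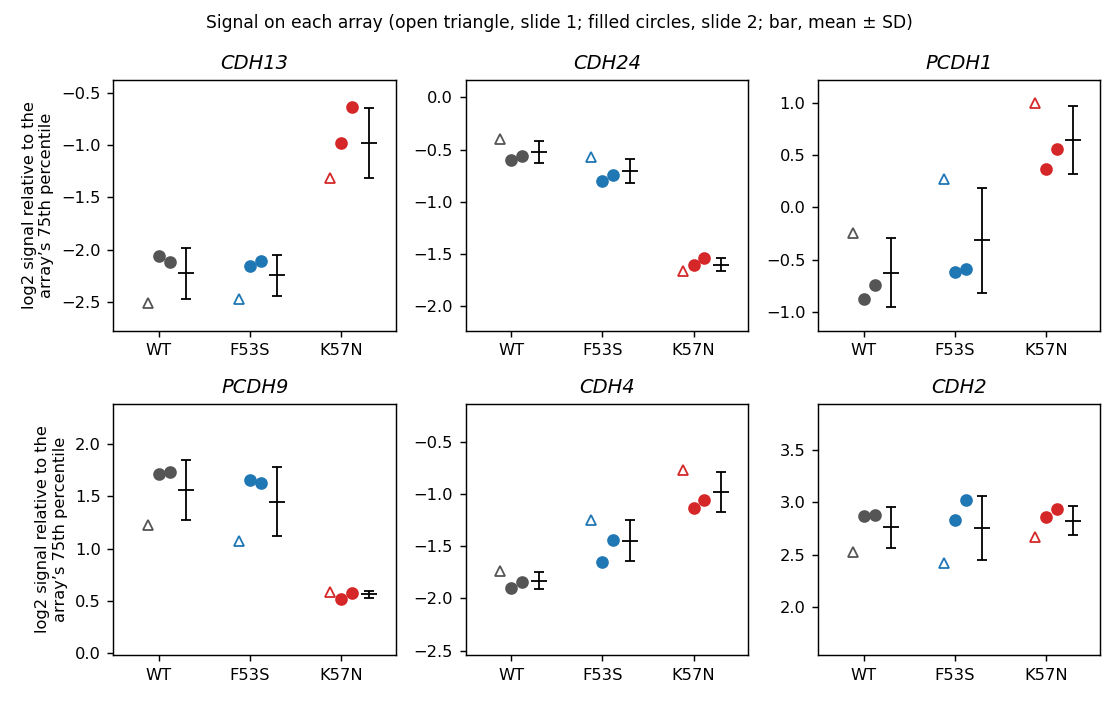
Log2 signal relative to the array's 75th percentile (y axis) on each array of the WT, F53S and K57N lines (x axis) for 6 genes, with open triangles for slide 1, filled circles for slide 2 and bars for the mean ± SD of 3 arrays; all panels span at least 2.4 log2 units. The K57N arrays stand apart for CDH13, CDH24, PCDH1, PCDH9 and CDH4, and the lines overlap for CDH2.

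Of the non-clustered protocadherins, the delta-1 members PCDH1, PCDH9 and PCDH7 were detected on all 9 arrays. PCDH1, known from airway epithelium, gave -0.25, -0.88 and -0.74 in WT cells, 0.27, -0.62 and -0.59 in F53S cells and 1.0, 0.37 and 0.56 in K57N cells. The K57N arrays were above all others, and slide 1 was higher than slide 2 in each line. The difference from WT was 1.27 ± 0.30 (log2, SE), 2.41-fold, with a limma adjusted p of 0.0772 that became 0.000385 with slide in the fit. Within slide 1 it was 1.25 and within slide 2 it was 1.28. Against F53S cells it was 0.96 (adjusted p = 0.267, and 0.00220 with slide in the fit), 1.95-fold. A second probe, for another transcript variant, was above background on no array.

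PCDH9 had lower signals in K57N cells. Its brightest probe, at chr13:67798671-67798730 (hg19), gave 1.23, 1.72 and 1.73 in WT cells, 1.07, 1.66 and 1.63 in F53S cells and 0.59, 0.52 and 0.58 in K57N cells. K57N arrays, with a mean of 0.56 ± 0.03 (SD, n = 3), lay below all arrays of the other lines. The difference from WT was -0.998 ± 0.22, which at 1.997-fold fell just short of the fold limit (limma adjusted p = 0.0580, and 0.00305 with slide in the fit). It was -0.64 within slide 1 and -1.18 within slide 2, and against F53S it was -0.89 (adjusted p = 0.134, and 0.00752 with slide in the fit). Both other PCDH9 probes were above background on at most 2 arrays. PCDH7, the remaining delta-1 gene tested, differed from WT by 0.05 in K57N and 0.18 in F53S cells.

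Of the 5 delta-2 members, 2 were tested. The tested probe of PCDH10 gave -2.95, -3.42 and -3.13 in WT and -3.47, -3.87 and -3.80 in K57N cells, a difference of -0.55 without overlap of the arrays (limma adjusted p = 0.478). Its second probe was detected on 2 arrays each of WT and F53S cells and on no K57N array, with signals of -4.93, -4.43 and -4.57 in WT cells, -4.32, -4.81 and -4.56 in F53S cells and -5.8, -6.26 and -5.54 in K57N cells. That probe was not tested. PCDH18 was not tested either: one of its probes was detected on 2 arrays each of WT and F53S cells, the other on 2 WT arrays, and neither on a K57N array. PCDH19 differed by 0.08 between K57N and WT, with signals on slide 1 above those on slide 2 in all lines. PCDH20, from the remaining non-clustered genes, differed by 0.48 (adjusted p = 0.520, and 0.0120 with slide in the fit).

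In the clustered protocadherins the tested beta genes, and the tested alpha genes too, all had lower means in K57N than in WT cells, and none of them reached the call. Of the 10 tested beta genes, 10 had a lower mean in K57N than in WT cells, with a median log2 difference of -0.45 and a range from -0.97 to -0.12, where over all genes the mean was lower for 57.1% and the median was -0.06. Arrays of K57N and WT did not overlap for 6 of the 10, all lower, against 12.6% of all genes. PCDHB10 passed the adjusted p at any fold, and with slide in the fit PCDHB9, PCDHB10, PCDHB14 and PCDHB15 did, which is 4 of 10 against 10.8% of all genes. With the replicate number as a block PCDHB14 did not. All 10 are read against the other genes on the array without a test of the group, and 9 of the 10 were detected on every array.

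PCDHB10 gave -1.58, -1.75 and -1.71 in WT cells, -1.73, -1.99 and -1.91 in F53S cells and -2.97, -2.47 and -2.39 in K57N cells. K57N arrays were below all others, and replicate 1 was the lowest. The difference from WT was -0.93 ± 0.19 (log2, SE), 1.91-fold (limma adjusted p = 0.0456). PCDHB15 gave -2.72, -2.60 and -3.05 in WT cells, -3.40, -3.42 and -3.11 in F53S cells and -4.21, -3.42 and -3.63 in K57N cells. Here the F53S arrays were also below all WT arrays, by 0.52 (adjusted p = 1.0), and touched the K57N range, while the K57N difference from WT was -0.97 (adjusted p = 0.0894, and 0.0159 with slide in the fit). PCDHB9 differed from WT by -0.75 (adjusted p = 0.109, and 0.0235 with slide in the fit) and PCDHB14 by -0.53 (0.316 and 0.0439). Differences were smallest for PCDHB8 (-0.12) and PCDHB2 (-0.24).

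The beta differences were larger on slide 1 than on slide 2 for 9 of the 10 genes, with PCDHB12 as the exception. Within slide 1, with 1 array per line, all 10 tested beta genes were lower in K57N than in WT cells, with a median of -0.91, where 60% of all genes were lower with a median of -0.14. Within slide 2, 9 of 10 were lower, with a median of -0.29, where 53% of all genes were lower with a median of -0.02. The exception was PCDHB8, higher by 0.17 on slide 2 and lower by 0.68 on slide 1. In all 3 pairs of equal replicate number K57N was lower for 8 of 10 (31.9% of all genes). Of 119 pairs of probes for different beta genes, the most similar, for PCDHB13 and PCDHB2, shared 48 of 60 bases, and the median pair shared 21. Whether transcripts of one beta gene bind the probe of another was not tested. The pseudogene PCDHB18P, in the same cluster, gave -2.05, -3.03 and -2.82 in WT and -4.08, -3.70 and -3.24 in K57N cells. Its difference of -1.04 (limma adjusted p = 0.173, and 0.0470 with slide in the fit) was -2.03 on slide 1 and -0.55 on slide 2. With slide in the fit, its call was lost on leaving out any array except K57N replicate 3, with log2 differences from -1.33 to -0.60 and adjusted p up to 0.191.

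The alpha and gamma clusters lie on either side of the beta genes, and their difference from the beta genes was not tested. All 5 tested alpha genes had a lower mean in K57N than in WT cells (57.1% of all genes), with a median difference of -0.40 and overlapping arrays for each of them. Within slide 1 all 5 were lower, with a median of -0.65 (60% of all genes, median -0.14). Within slide 2, 3 of 5 were lower, with a median of -0.10 (53% of all genes, median -0.02). PCDHA11 was read from a probe in the constant exons (chr5:140390896-140390955, hg19), so it reports transcripts of the whole alpha cluster, and it differed by -0.02. PCDHA5 had the largest alpha difference, -1.03, but its arrays ranged from -4.40 to -1.22 in WT cells and from -5.65 to -2.67 in F53S cells, and its difference of -1.36 between F53S and WT cells came with an SE of 0.90. The 8 tested gamma genes differed by -0.47 to 0.35, but 4 of them passed the background limit on every array of 1 line only, so their direction is partly set by that filter. These were PCDHGB1, PCDHGB4 and PCDHGA12, which passed through K57N cells and lie above 0, and PCDHGC4, which passed through WT cells and gives the lower end of the range. The other 4 were above background on every WT and K57N array, and PCDHGA2 differed by 0.23, PCDHGA7 by -0.05 and both PCDHGA3 and PCDHGA8 by -0.29. A second, dimmer PCDHGA7 probe, also detected on all 9 arrays, differed by -0.79 (limma adjusted p = 0.609) with overlapping arrays, and by -0.84 between F53S and WT cells. Second tested probes of PCDHB2 and PCDHGB1 differed between K57N and WT cells by -0.21 and 0.20. The probe named PCDHGA8 lies in the gamma constant exons (chr5:140892394-140892453, hg19) and differed by -0.29, with 2.36, 1.77 and 1.73 in WT and 1.94, 1.24 and 1.83 in K57N cells, which overlap.

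F53S and WT cells were separated for few members. Of the 39 tested members, 2 were higher and 2 lower without overlap of the arrays (1.55% and 1.64% of all genes), CDH4 and PCDH7 higher and PCDHB15 and PCDHA1 lower. For PCDHA1, F53S replicate 3 was left out as an uneven spot. The medians were 0.01 for classical cadherins, 0.17 for non-clustered and -0.11 for clustered protocadherins, and -0.15 for the beta genes. By mean, 9 of 10 beta and 5 of 5 alpha genes were lower in F53S than in WT cells (45.8% of all genes). Within slide 1 this held for 8 beta and 3 alpha genes (41.9% of all genes) and within slide 2 for 7 beta and 4 alpha genes (53.5%). In K57N against WT the same classes had medians of -0.13, 0.07, -0.29 and -0.45, and both comparisons share the WT arrays. Against F53S cells, K57N cells had a median of -0.29 over the tested beta genes, 9 of 10 being lower (57.9% of all genes), and the arrays did not overlap for PCDHB9, PCDHB10, PCDHB11 and PCDHB14, all lower (10.3% of all genes). The tested alpha genes had a median of 0.02 in that comparison, 2 of 5 being lower, with medians of -0.58 within slide 1 and 0.11 within slide 2.

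**Figure D3:**
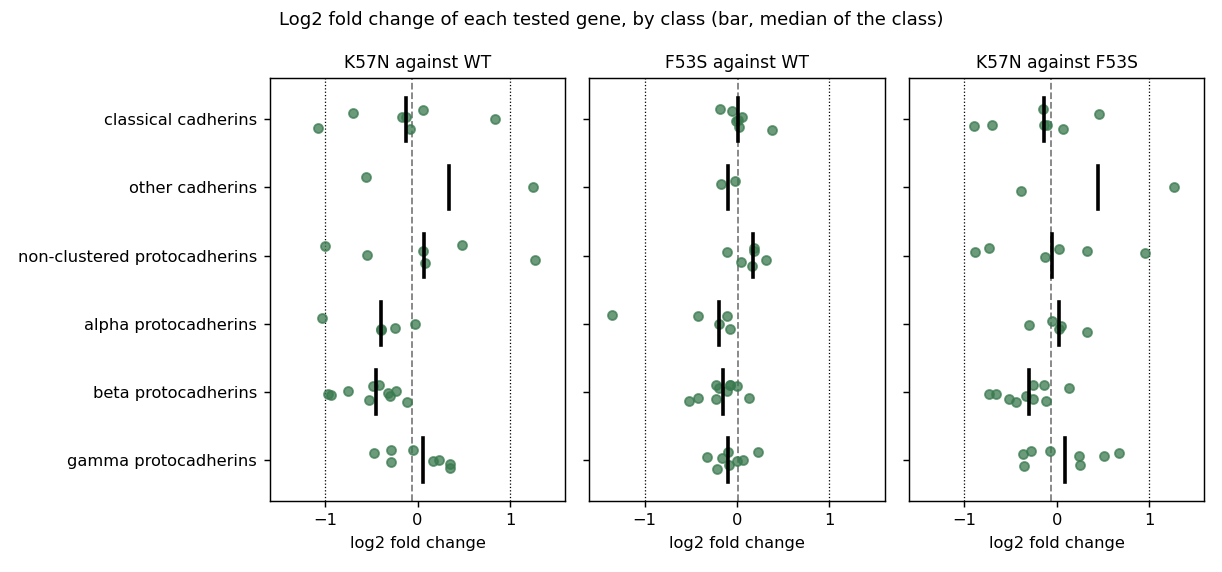
Log2 fold change (x axis) of each tested gene (points) in 6 classes (y axis) for the 3 comparisons, with black bars for the class median, a dashed line for the median of all genes tested and dotted lines at 2-fold. In K57N against WT cells the beta and alpha protocadherins lie wholly below 0 (medians -0.45 and -0.40).

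Partners of the cadherins were followed through lists that do not overlap the members. Without the slide term 0 of the 44 tested genes of the 4 lists were called in K57N against WT cells (1.52% higher and 0.742% lower over all genes). With it, 1 of the 44 was called, lower (1.97% of all genes). This was FAT4, a large cadherin of planar cell polarity, which gave -2.58, -1.28 and -1.24 in WT cells, -3.25, -1.57 and -1.63 in F53S cells and -4.13, -3.11 and -3.12 in K57N cells. The K57N arrays were below all others except F53S replicate 1, and the difference from WT was -1.75 (limma adjusted p = 0.181, and 0.000208 with slide in the fit). Against F53S cells it was -1.30 (adjusted p = 0.474, and 0.00134 with slide in the fit). At any fold and with slide in the fit, 3 of 9 tested catenins and plakophilins were lower (PKP2 by 0.74, PKP3 by 0.66 and CTNND1 by 0.49 on the log2 scale) and 1 higher (VCL), while beta-catenin (CTNNB1), the partner of the classical cadherin tails, differed by 0.02. In the same fit, 1 of 4 tested genes of desmosomes was higher, desmoplakin (DSP), by 0.95. Of 12 tested genes of the wider cadherin superfamily, FAT4 and CELSR2 were lower and RET was higher. Of 19 tested regulators and partners of protocadherins, CYFIP2 and DNMT3B were lower and the protease ADAM10, which sheds cadherins and protocadherins, was higher, and CTCF and the cohesin subunits RAD21, SMC1A and SMC3 differed from WT by -0.04 to 0.13. Over all genes that fit gave 8.56% higher and 10.8% lower.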

How the data were processed

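RNA from 3 HEK293 lines was hybridized to 9 one-color Agilent human gene expression arrays (8x60K, version 2), 3 per line. The authors deposited, for each array, the output of Agilent Feature Extraction 10.10.1.1, of which the processed signal was used: an intensity after background subtraction and detrending, not scaled between arrays. The authors also deposited a table of log2 values, which differed from the log2 processed signal only by an array's constant (within 0.02 for 99.6% of probes) and served as an alternative.

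Control spots (4259 of 62975) and 278 to 501 uneven or outlying spots per array were left out, spots of a probe were averaged, and each array was centered on its 75th percentile after log2. Probes were tested where the 3 arrays of 1 line or more all had them well above background (at least 50% of the probe's spots), which left 25400, 44 of them members. A gene was read from its tested probe with the highest mean, and 22 member genes have several probes. Names were updated through RefSeq accessions, and positions on the array are those of its hg19 annotation. limma 3.58.1 (R 4.3.3, data.table version 1.17.8) was fitted with a mean for each line, and the Benjamini-Hochberg adjustment ran over all tested probes. The median SE of a member's log2 difference was 0.27 without and 0.17 with slide in the fit. The number of arrays limits the precision. Python 3.11.15, pandas 2.3.3 and matplotlib 3.10.9 made counts and figures. The fit was also run on simulated arrays with planted changes larger than those of the called members, which does not test the calls reported here.

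The members, the gene lists and the tests were chosen with earlier results of these data known. Genes named are those called with or without the slide term, CDH1, CDH2, CDH3, CDH11 and CDH13, in each comparison the 5 members above background on all 9 arrays with the largest change, called genes of the other lists, and MAP2K1; members named beyond these, and genes of the lists that passed the adjusted p only, were chosen after their values were seen. After removal of line means, arrays of equal replicate number correlated across genes with r from 0.34 to 0.87, and arrays of different slides with -0.80 to -0.46. On slide 2 alone, arrays of equal number gave 0.34 to 0.77 and arrays of different number 0.43 to 0.65. A pairing by number beyond the slide was therefore not shown. Alternatives were normexp (offset 50), quantile normalization, no filter, a filter on all 9 arrays, the deposited table, slide or replicate number as a block, slide 2 alone, fits of 2 lines, the mean of a gene's probes, the methods' t-test and leaving out each array. limma without adjustment, and the slide block with an array left out, were added after seeing the data. Promoter sequences come from RefSeq (GRCh38.p14).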

Additional observations from a re-analysis of the deposited data

How the results depend on the processing

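The number of members called rests on a few genes near the limits. In K57N against WT cells, 1 member was higher (CDH13); the count was 0 with normexp, without a filter on dim probes, with 2 lines at a time and with the methods' t-test adjusted, and 2 (CDH13 and PCDH1) with slide as a block, with slide 2 alone, with the methods' t-test unadjusted and with limma unadjusted. With the replicate number as a block, it was also 2 (CDH13 and PCDH1). Leaving out 1 array gave 0 to 2. The count of lower members, 1 (CDH24), was 0 with normexp and without a filter, and 2 (CDH24 and PCDHB18P) with slide as a block and with limma unadjusted, was 1 with slide 2 alone but was then PCDH9, and 1 to 2 on leaving out 1 array (2, with PCDH9, without WT replicate 1). With slide in the fit and 1 array left out, the counts were 2 higher and 1 to 3 lower.

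In K57N against F53S cells, 1 member was higher; the count was 0 with normexp, quantile normalization, no filter, 2 lines at a time and the methods' t-test adjusted, and 2 (CDH13 and PCDH1) with slide 2 alone, and 0 to 1 on leaving out 1 array (1 to 2 with slide in the fit). Lower members numbered 0, and 1 (PCDH9) with slide 2 alone, and 0 to 1 on leaving out 1 array with slide in the fit. F53S against WT gave 0 in each setting run. The replicate block changed no other call. No called difference changed sign in the settings run, but differences near 0 that were not called did in some, for CDH2 in each comparison, for CDH3, CDH13, PCDH9, PCDHB16 and PCDHB18P in F53S against WT cells, and for the medians of the classical, clustered and non-clustered classes. The causes were not tested.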
